A study of Oryctolagus cuniculus with 24 samples.

Results

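The B cell identity genes are 8 genes whose products mark or equip the B lymphocyte, namely MS4A1, CD79A, CD79B, CD22, PAX5, BLNK, CD72 and BLK. They were followed in rabbit peripheral blood mononuclear cells (PBMCs), the mixture of lymphocytes and monocytes left after density separation of blood, on one-colour Agilent arrays. A probe was assigned to a member when the symbol given for it, or the symbol of its RefSeq accession or gene number, was that of the gene. By this rule 6 of the 8 genes were measured, by 14 of the 42089 probes of the array, among 28857 genes tested. CD79A and PAX5 were not analysed here.

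PBMCs came from 4 rabbits, here rabbits 1, 2, 4 and 5, all adult females of the New Zealand White breed. Cells of each rabbit were mock-stimulated, stimulated with lipopolysaccharide (LPS, a bacterial cell wall component) at 1 µg/mL, or stimulated with phorbol myristate acetate (PMA) at 10 ng/mL together with ionomycin at 1 µg/mL, and were harvested after 4 hours (T4) or 24 hours (T24). This gave 6 groups of 4 cultures, 24 arrays in all, with the same rabbits in every group. PMA activates protein kinase C and ionomycin lets calcium into the cell, so that the mixture bypasses the receptors at the cell surface. The cells were a mixture and were not sorted, so where a B cell gene was lower, fewer B cells and less RNA per B cell cannot be told apart.

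A mature B cell is built around its antigen receptor. Membrane immunoglobulin binds antigen, and the CD79A and CD79B chains carry the signal inwards through their immunoreceptor tyrosine-based activation motifs (ITAMs). Kinases of the Src family such as BLK and LYN, and then SYK, phosphorylate these motifs, the adaptor BLNK couples SYK to calcium release, and the inhibitory receptors CD22 and CD72 damp the signal. MS4A1 encodes CD20, a surface protein used to recognise B cells, and PAX5 is the transcription factor that holds the lineage together.

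The members were read by probes of 60 bases, and the sequences of 6 of them are given because each value below rests on one stretch of transcript. Every one of the 14 probes had at least 1 reading frame free of stop codons. The CD79B probe lies over part of the ITAM: the capitals run from a tyrosine codon to the isoleucine codon that follows it at ITAM spacing, in the only stop-free frame. It maps to the minus strand at chr19:48736050-48736109 of the oryCun2 build, as the array files give it.
CD79B: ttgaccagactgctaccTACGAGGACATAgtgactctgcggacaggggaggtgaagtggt

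MS4A1 had 3 probes on the plus strand of chromosome 1, and all 3 are printed because they gave different responses. The first starts at base 688 of the transcript (chr1:193053656-193053715), the second at base 744 (chr1:193053712-193053771) and the third at base 788 (chr1:193053756-193053815). The capitals mark the 16 bases that the second and the third share.
MS4A1 base 688: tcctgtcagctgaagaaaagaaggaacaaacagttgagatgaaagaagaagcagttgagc
MS4A1 base 744: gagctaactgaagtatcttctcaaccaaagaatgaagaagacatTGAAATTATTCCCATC
MS4A1 base 788: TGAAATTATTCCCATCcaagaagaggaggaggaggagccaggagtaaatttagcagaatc

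BLK had 1 probe, at chr2:38417340-38417399 on the minus strand. It is shown because the array's own description calls this target a lymphocyte-specific protein tyrosine kinase, whereas its RefSeq accession is that of BLK. The first of the 5 BLNK probes lies on the minus strand at chr18:44850268-44850327. The 5 overlap and cover 196 bases of the transcript, and 2 of them cross an exon junction, their 60 bases being spread over 6117 bases of genome.
BLK: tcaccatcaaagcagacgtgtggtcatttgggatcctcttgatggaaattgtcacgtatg
BLNK base 1085: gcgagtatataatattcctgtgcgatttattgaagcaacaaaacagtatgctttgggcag

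CD22 had 1 probe, for which the files give no position. The 3 CD72 probes start at neighbouring bases of the transcript, 947, 948 and 949, and are in effect 1 measurement.

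Levels are log2 of the median signal of a spot minus the median of its array, averaged over the probes of a gene. A level of 0 is thus that of the middle spot, and levels of different genes were not compared because probes differ in brightness. From 51.4 to 62.3% of the spots of an array were well above background, and no member spot was saturated or marked as an outlier by the scanner software. The arrays lay on 3 slides of 8, each of which held all 6 groups. A gene was called DE when its limma p, adjusted over all 28857 genes, was under 0.05. Of the study's 2 reference genes, B2M and GAPDH, the symbol rule found B2M only. No comparison of B2M was called. Its log2 fold changes lay between -0.56 and 0.37 in the comparisons of stimulated with mock-stimulated cells.

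After 4 hours of PMA-Ionomycin, CD79B, BLNK and MS4A1 were down-regulated and BLK was up-regulated. The call of 3 of 6 members lower stands beside 9.34% of all genes called lower, and that of 1 of 6 higher beside 13.4% called higher. The median log2 fold change of the 6 members was -1.26, against 0.046 for all genes. When both the signal and its scaling were exchanged (Agilent's processed signal, set to the 75th percentile of each array), the calls over all genes split into 3705 lower and 3294 higher, in place of 2695 lower and 3880 higher. These 4 genes were called under every one of 13 alternatives, and in 7 of them CD22 was also called lower.

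**Figure D1:**
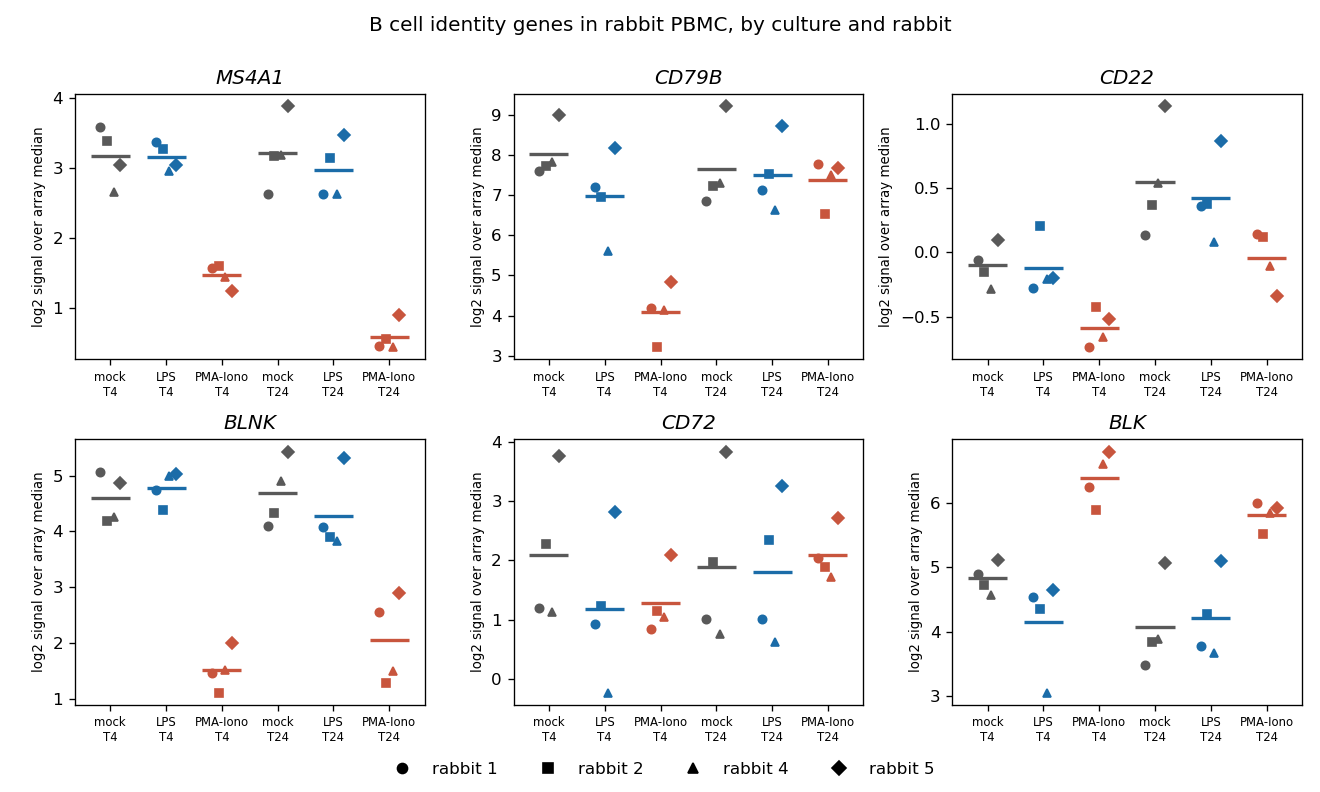
Level of each of the 6 B cell identity genes (log2 signal over the array median, y axis, scaled separately for each gene) in the 6 groups of cultures, with one symbol for each rabbit and a line at the mean of 4. In PMA-Ionomycin cultures all 4 rabbits lay below all mock-stimulated cultures of the same time for MS4A1 and BLNK, and above them for BLK, while CD79B was low at T4 and overlapped the mock-stimulated cultures at T24.

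CD79B, the signalling chain of the receptor, fell furthest. Its levels were 7.60, 7.71, 7.81 and 8.98 in the mock-stimulated cultures of rabbits 1, 2, 4 and 5, and 4.20, 3.21, 4.14 and 4.82 after PMA-Ionomycin. The groups were far from overlapping, and every rabbit fell, by 3.40 to 4.50 on the log2 scale. The log2 fold change was -3.93 ± 0.53 (SE, n = 4 per group), a 15.2-fold decrease (limma adjusted p = 5.45e-06). Within the 3 slides the difference ran from -5.30 to -2.88. Of all genes tested, 0.0381% had a log2 fold change at or below it.

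BLNK, the adaptor that joins SYK to calcium signalling, stood at 5.06, 4.19, 4.26 and 4.86 in mock-stimulated cells and at 1.46, 1.11, 1.52 and 1.99 after PMA-Ionomycin. No PMA-Ionomycin culture came near a mock-stimulated one. The decrease was 8.41-fold (log2 fold change -3.07 ± 0.36 SE, adjusted p = 7.36e-07), and the 5 probes taken singly gave -3.22 to -2.90.

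MS4A1 levels were 3.58, 3.38, 2.65 and 3.04 in mock-stimulated cells and 1.56, 1.60, 1.45 and 1.24 after PMA-Ionomycin. Again the groups did not overlap. The log2 fold change of the gene average was -1.70 ± 0.23 SE, a 3.25-fold decrease (adjusted p = 4.51e-06).

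BLK, a kinase that acts at the top of the same receptor, went the other way. Its levels were 4.89, 4.73, 4.57 and 5.12 in mock-stimulated cells and 6.24, 5.89, 6.59 and 6.79 after PMA-Ionomycin, higher in 4 of 4 rabbits. The increase was 2.94-fold (log2 fold change 1.56 ± 0.34 SE, adjusted p = 0.00136). LCK, the T cell kinase to which the array's description of the BLK target would fit, has a probe of its own and was not called (log2 fold change -0.45, adjusted p = 0.111).

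The inhibitory receptors were not called at T4. CD22 was dim throughout: its levels were -0.063, -0.16, -0.28 and 0.097 in mock-stimulated cells and -0.74, -0.43, -0.66 and -0.52 after PMA-Ionomycin, where only 1 of 4 arrays was well above background. All 4 rabbits were lower and the groups did not overlap, yet the log2 fold change of -0.49 ± 0.18 SE had an adjusted p of 0.0625. It was called in 7 of 13 alternatives. With the rabbit as a block the adjusted p was 0.0437, and the processed signal gave -1.49 (adjusted p = 0.00131). CD72 ranged from 1.13 to 3.75 in mock-stimulated cells and from 0.85 to 2.09 after PMA-Ionomycin. All 4 rabbits were lower, but the rabbits differed among themselves by more than the stimulation moved them (log2 fold change -0.82 ± 0.69 SE, 95% interval -2.24 to 0.61, adjusted p = 0.529, and 0.0512 with the rabbit as a block).

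**Figure D2:**
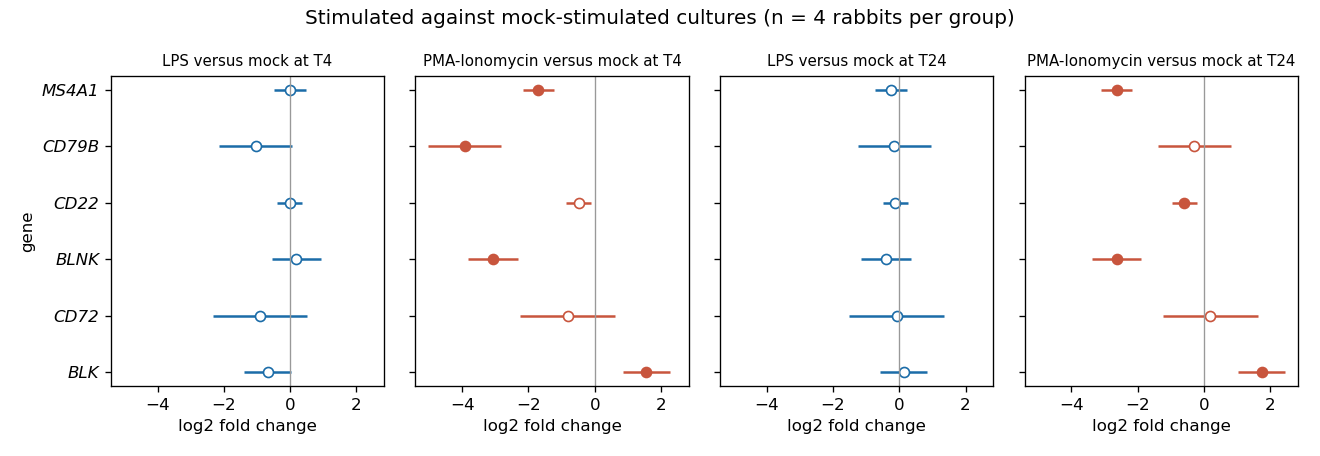
Log2 fold change (x axis) of the 6 members in stimulated against mock-stimulated cultures, with limma's 95% confidence interval for the single gene, not adjusted for the number of genes. Filled points were called DE, open points were not, and the calls lie in the PMA-Ionomycin panels, MS4A1 and BLNK at -1.70 and -3.07 at T4 and at -2.63 and -2.64 at T24.

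After 24 hours of PMA-Ionomycin, MS4A1, BLNK and CD22 were lower than in mock-stimulated cells of that time and BLK was higher. Here 3 of 6 members were lower beside 11.5% of all genes, and 1 of 6 was higher beside 22.1%. The members' median was -0.44, against 0.031 for all genes. The processed signal at its 75th percentile turned the split over all genes from 3315 lower and 6387 higher into 5413 lower and 4677 higher.

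MS4A1 stood at 2.63, 3.17, 3.18 and 3.88 in mock-stimulated cells and at 0.46, 0.55, 0.43 and 0.89 after PMA-Ionomycin, the lowest of its 6 groups. The decrease was 6.19-fold (log2 fold change -2.63 ± 0.23 SE, adjusted p = 2.37e-09), and the processed signal gave a log2 fold change of -3.98. BLNK went from 4.10, 4.34, 4.90 and 5.43 to 2.56, 1.27, 1.50 and 2.89. Its decrease of 6.21-fold (log2 fold change -2.64 ± 0.36 SE, adjusted p = 2.6e-06) held in all 4 rabbits, and rabbit 1 fell least, by 1.54.

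BLK levels were 3.48, 3.84, 3.89 and 5.06 in mock-stimulated cells and 5.996, 5.51, 5.84 and 5.91 after PMA-Ionomycin. The groups did not overlap, and the increase was 3.36-fold (log2 fold change 1.75 ± 0.34 SE, adjusted p = 0.000242). Quantile normalization gave a log2 fold change of 1.15 (adjusted p = 0.0133), and normexp with it 1.16 (adjusted p = 0.0133). LCK was again not called (0.11, adjusted p = 0.785).

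CD22, a receptor for sialic acid that restrains the B cell receptor, stood at 0.13, 0.36, 0.54 and 1.13 in mock-stimulated cells and at 0.14, 0.12, -0.11 and -0.34 after PMA-Ionomycin. The groups overlapped, and rabbit 1 did not fall. The log2 fold change was -0.59 ± 0.18 SE (adjusted p = 0.0144). Without rabbit 5 it was -0.30, and the call was lost, as it was without rabbit 4 or in a fit of those 8 arrays alone. The processed signal gave -1.39 (adjusted p = 0.00167).

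CD79B overlapped between the groups at this time. Its levels were 7.76, 6.53, 7.49 and 7.67 after PMA-Ionomycin and 6.86, 7.23, 7.31 and 9.21 in mock-stimulated cells, lower in 2 rabbits and higher in 2, with rabbit 2 below the lowest mock-stimulated culture. The log2 fold change of -0.29 had a 95% interval of -1.39 to 0.82 (adjusted p = 0.805). CD72, which binds to semaphorin and carries an inhibitory tyrosine motif, was not called either: 1.72 to 2.72 after PMA-Ionomycin lay inside the 0.76 to 3.84 of mock-stimulated cells (log2 fold change 0.20, interval -1.23 to 1.62, adjusted p = 0.909).

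The change of the PMA-Ionomycin response from T4 to T24 was tested as an interaction. CD79B was called higher, 1 of 6 members beside 14.4% of all genes: its response rose by 3.64 ± 0.76 on the log2 scale (adjusted p = 0.000816), by 2.62 to 4.30 in the 4 rabbits. MS4A1 was called lower, 1 of 6 beside 8.14%: its response went down by 0.93 further (interaction -0.93 ± 0.32 SE, adjusted p = 0.0397). That call was lost with the slide as a block, with normexp and quantile normalization, and without rabbit 2, 4 or 5, while the processed signal gave -1.89. For BLNK the interaction was 0.44 (interval -0.62 to 1.49) and for BLK 0.19 (interval -0.81 to 1.20), and neither was called. CD72 gave 1.01 (adjusted p = 0.593) and CD22 -0.11 (adjusted p = 0.883).

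The gene average of MS4A1 joins probes that disagreed. At the probe starting at base 688 the mean level fell from 3.34 ± 0.39 (SD, n = 4) in mock-stimulated cells to 0.97 ± 0.17 after 4 hours of PMA-Ionomycin, and from 3.47 ± 0.57 to -0.36 ± 0.16 after 24 hours. The probe at base 744 went from 2.65 to 0.79 and from 2.78 to -0.58, the last on 2 of 4 arrays well above background. Both showed a deeper decrease at T24 than at T4.
The probe at base 788, which shares 16 bases with its neighbour, went only from 3.49 to 2.62 and from 3.38 to 2.68. As fold changes, the decrease at T24 was 14.2-fold, 10.3-fold and 1.63-fold along the transcript, with adjusted p of 1.11e-11, 3.61e-10 and 0.0508 in the fit of single probes. At T4 it was 5.16-fold, 3.63-fold and 1.83-fold, all called. The interaction was -1.46 and -1.50 at the first pair of probes (adjusted p = 0.00194 and 0.00359) and 0.17 at the last (adjusted p = 0.858). The difference between probes was not itself tested.

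**Figure D3:**
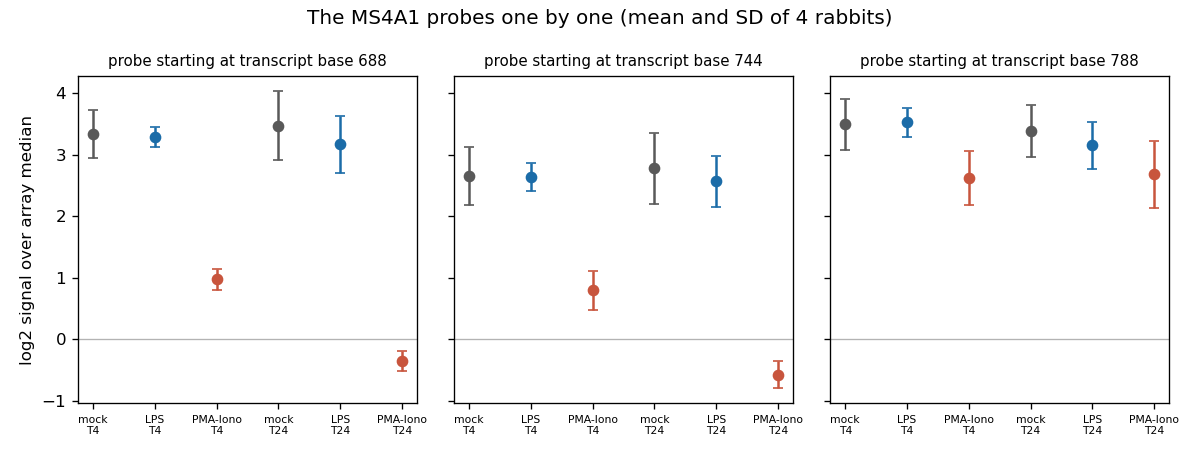
Level of MS4A1 (log2 signal over the array median, mean and SD of 4 rabbits) at each of its 3 probes in the 6 groups. The probes starting at bases 688 and 744 end below 0 after 24 hours of PMA-Ionomycin, at -0.36 and -0.58, and the probe at base 788 stays at 2.68.

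LPS was the milder stimulus. None of the 6 members was called at T4, where 0.974% of all genes were called lower and 0.0554% higher, nor at T24, where 0.582% were lower and 0.638% higher. These shares depended on single rabbits. Without rabbit 2 or without rabbit 4 no gene was called at T4. Without rabbit 4 the 168 lower and 184 higher of all genes at T24 became 36 and 49. By limma, 0 of 6 members had an unadjusted p under 0.05 at either time, and none was called with the rabbit as a block. The members' median log2 fold change was -0.35 at T4, against 0.058 for all genes, and -0.14 at T24, against -0.031.

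At T4 CD79B stood at 7.19, 6.96, 5.60 and 8.16 after LPS, below the mock-stimulated cells of the same rabbit in 4 of 4 cases. The groups overlapped, and the log2 fold change of -1.04 ± 0.53 SE (interval -2.15 to 0.063) had an adjusted p of 0.401, or 0.0865 with the rabbit as a block. CD72 gave -0.91 (adjusted p = 0.596) and BLK -0.68 (adjusted p = 0.397), each also lower in 4 of 4 rabbits. For all 3 genes the lowest LPS culture was that of rabbit 4, and its difference was the largest of the 4. That array had the lowest median signal (59) and the lowest share of spots well above background (51.4%) of the 24. Without rabbit 4 CD79B gave -0.66, BLK -0.40 and CD72 -0.75, and the part of the array in these values was not tested.
MS4A1 (-0.0092, interval -0.48 to 0.46), CD22 (-0.021, interval -0.40 to 0.36) and BLNK (0.19, interval -0.56 to 0.94) lay close to 0 at T4. At T24 the 6 log2 fold changes ran from -0.41 for BLNK to 0.14 for BLK. The interaction of LPS and time, for which 0.239% of all genes were called lower and 1.7% higher, called none of the 6, with 0 at an unadjusted p under 0.05.

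Between T4 and T24 in mock-stimulated cells, CD22 was the one member called. It was higher at T24 in 4 of 4 rabbits with no overlap (log2 fold change 0.64 ± 0.18 SE, adjusted p = 0.0208), 1 of 6 members beside 7.4% of all genes called higher. Its call was lost without rabbit 2 or rabbit 4 and in a fit of those arrays alone, and the processed signal gave 1.17. None was called lower, beside 5.13% of all genes, although BLK was lower in 4 of 4 rabbits (-0.76, adjusted p = 0.186). MS4A1 (0.051, interval -0.42 to 0.52), BLNK (0.099, interval -0.65 to 0.85), CD72 (-0.20, interval -1.63 to 1.23) and CD79B (-0.37, interval -1.48 to 0.73) were not called.

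Ordered by group means, MS4A1 and BLNK put the 4 mock and LPS groups together at the top, each overlapping its neighbour, and both PMA-Ionomycin groups at the bottom. CD79B overlapped between neighbours in all groups but PMA-Ionomycin at T4, which stood alone at the bottom. For CD22 PMA-Ionomycin at T4 also stood alone at the bottom. For BLK both PMA-Ionomycin groups stood above the rest, which overlapped. No step in the order of CD72 was free of overlap.

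Members differed between rabbits as well as between cultures. Rabbit 5 lay above the mean of its group in 6 of 6 groups for CD79B, BLNK, CD72 and BLK, on average by 0.99, 0.60, 1.35 and 0.53. For CD72 rabbits 1 and 4 lay below in 6 of 6 groups, and rabbit 4 was on average 0.89 below.
After removal of group means, the 24 arrays gave a Pearson correlation of 0.93 between CD79B and BLK, 0.86 between CD79B and CD72 and 0.81 between CD72 and BLK. These values describe arrays that share rabbits, slides and scaling. Over the same arrays with group means kept, CD79B and BLK correlated at -0.34 and MS4A1 and BLK at -0.66. MS4A1 and BLNK, which both fell, stood at 0.89 with group means and at 0.51 without. CD79B and BLK thus rose and fell together from rabbit to rabbit within a group while moving apart after 4 hours of PMA-Ionomycin.

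**Figure D4:**
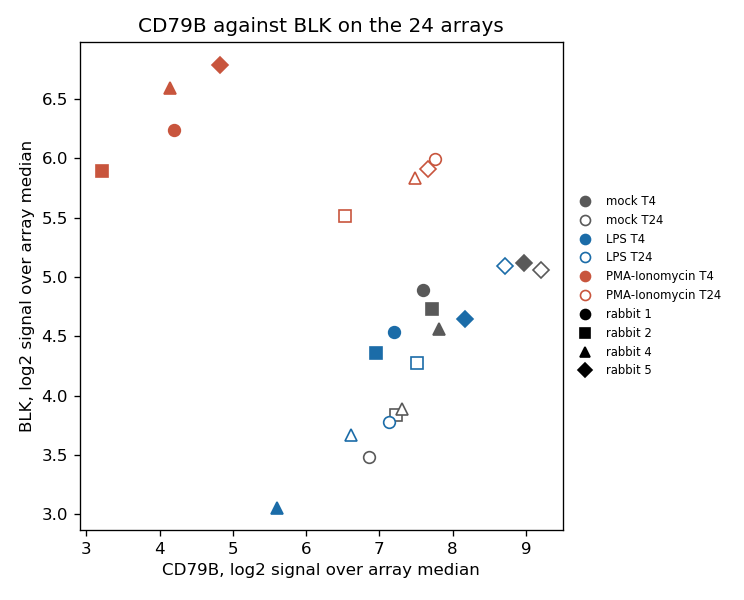
Level of BLK against that of CD79B (both log2 signal over the array median) on the 24 arrays, with colour for the stimulation, filled symbols for T4, open symbols for T24 and one shape for each rabbit. Mock and LPS cultures lie along one rising band from rabbit 4 after LPS at T4 (5.60 and 3.05) to rabbit 5, and the PMA-Ionomycin cultures lie above it.

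The genes most like the members were sought among 6300 non-member genes with a symbol, by the Pearson correlation over 24 arrays with the mean of the standardised member levels. The 8 highest were CDCA7L (0.92), LIMD2 (0.91), TKFC (0.91), BANK1 (0.91), PRKD2 (0.90), SEMA4B (0.90), CACUL1 (0.90) and HIP1R (0.88). BANK1 is a scaffold of B cell receptor signalling and PRKD2 a kinase activated downstream of diacylglycerol. After 4 hours of PMA-Ionomycin PRKD2 had a log2 fold change of -2.38 (adjusted p = 2.84e-06) and BANK1 of -1.71 (adjusted p = 0.0022). These were the largest decreases of the 8 at that time. At T24 PRKD2 and BANK1 stood at -1.39 and -1.61, both called, as were TKFC, CACUL1 and HIP1R. CDCA7L, LIMD2 and SEMA4B were not called at T24 (limma adjusted p = 0.161, 0.0531 and 0.612). The choice used these same arrays and the mean over the members, so the decreases of PRKD2 and BANK1 describe the genes chosen and are no independent result.

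The wider B lineage was described with 5 further lists that hold 62 genes, of which 44 were measured. None of the 6 immunoglobulin genes among the 62 was found by symbol. After PMA-Ionomycin 14 were lower and 12 higher at T4, and 20 lower and 6 higher at T24. The backgrounds are those given above for the members. The median over the 44 was -0.31 at T4 and -0.65 at T24.

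Among 12 surface receptors and co-receptors, 2 were lower and 2 higher at T4, beside 9.34% and 13.4% of all genes. The T24 counts were 3 lower and 2 higher, beside 11.5% and 22.1%, and both counts higher were near those shares. FCRLA, an intracellular Fc receptor-like protein of B cells, had levels of 5.57, 6.35, 6.79 and 7.67 in mock-stimulated cells at T24 and 2.88, 3.07, 1.58 and 2.23 after PMA-Ionomycin. The groups did not overlap, and the decrease was 17.8-fold (log2 fold change -4.15 ± 0.38 SE, adjusted p = 4.83e-09), after 3.40-fold at T4 (adjusted p = 0.00098). The tetraspanin CD37 fell 5.00-fold at T24 (adjusted p = 7.21e-07). FCRL1 was not well above background on any PMA-Ionomycin array at T24. The bound on the decrease of its group means was 1.37 on the log2 scale, leaving out sampling error. Its log2 fold change was -1.58 (95% interval -2.15 to -1.02, adjusted p = 5.72e-05). CD40, the receptor for T cell help, was higher at both times, by 0.84 and 0.76 (adjusted p = 0.00524 and 0.00756).

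Of 13 genes of receptor signalling, 6 were lower and 1 higher at T4, beside 9.34% and 13.4% of all genes. The T24 counts were 9 lower and none higher, beside 11.5% and 22.1%. SYK, the kinase that binds the phosphorylated ITAM, stood at 2.91, 3.19, 2.96 and 3.22 in mock-stimulated cells at T4 and at 0.97, 1.15, 0.36 and 0.66 after PMA-Ionomycin. Its decrease was 4.88-fold at T4 (adjusted p = 5.62e-08) and 5.23-fold at T24 (adjusted p = 8.89e-09), in 4 of 4 rabbits each time. PIK3CD, the lymphocyte phosphoinositide kinase, fell 2.86-fold and 2.11-fold (adjusted p = 1.44e-06 and 5.93e-05). MALT1 and BCL10 carry the signal to NF-kappa B. MALT1 fell 3.28-fold at T4 (adjusted p = 6.19e-06) and 2.19-fold at T24 (adjusted p = 0.000455), and BCL10 fell 1.77-fold at T24 (adjusted p = 1.78e-05). These genes were read in unsorted cells, and the part of B cells in their decreases was not tested.
LYN, a Src family kinase like BLK, was 1.14 higher at T4 (adjusted p = 0.04) and 1.24 lower at T24 (log2 fold change -1.24, adjusted p = 0.0176). It was the only gene of this list called in opposite directions, and is named for that reason after its values were seen.

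Transcription factors split at T4. Of 14 measured, 4 were lower and 7 higher at that time, beside 9.34% and 13.4% of all genes. The T24 counts were 5 lower and 3 higher, beside 11.5% and 22.1%, and the count higher was near its share. EBF1, the partner of PAX5 in setting up the lineage, stood at -0.45, -0.75, -0.56 and -0.22 in mock-stimulated cells at T4, where 1 of 4 arrays was well above background, and at 0.61, 0.81, 1.31 and 1.27 after PMA-Ionomycin (2.82-fold higher, adjusted p = 3.03e-06). At T24 its log2 fold change was 0.0019 (adjusted p = 0.997). ETS1 was not called at T4 (0.36, adjusted p = 0.508) and fell 4.17-fold at T24 (adjusted p = 5.12e-06). SPI1, which monocytes also express, fell 2.46-fold and 3.38-fold (adjusted p = 8.73e-05 and 7.62e-07). BCL11A was not well above background on any PMA-Ionomycin array at T4. The bound on the decrease of its group means was 1.21 on the log2 scale, leaving out sampling error. Its log2 fold change there was -1.29 (95% interval -1.76 to -0.83, adjusted p = 0.000114). The T24 value was -1.52 (adjusted p = 7.55e-06), with 1 of 4 PMA-Ionomycin arrays well above background.

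Of 5 genes of plasma cells and class switching, 2 were lower and 2 higher at T4, beside 9.34% and 13.4% of all genes. The T24 counts were 3 lower and 1 higher, beside 11.5% and 22.1%, and the count higher was near its share. IRF4, the factor that drives activated B and T cells, rose from 2.06, 1.81, 1.94 and 2.56 to 3.96, 4.00, 4.68 and 4.00 at T4 (4.19-fold, adjusted p = 1.85e-07) and by 1.49-fold at T24 (adjusted p = 0.048). CD38 fell 2.72-fold and 2.15-fold (adjusted p = 0.00363 and 0.0179). SDC1, the plasma cell marker CD138, was 0.62 higher at T4 (adjusted p = 0.0177), where 1 of 4 mock arrays was well above background, and at -0.77 at T24 (adjusted p = 0.00198).

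**Figure D5:**
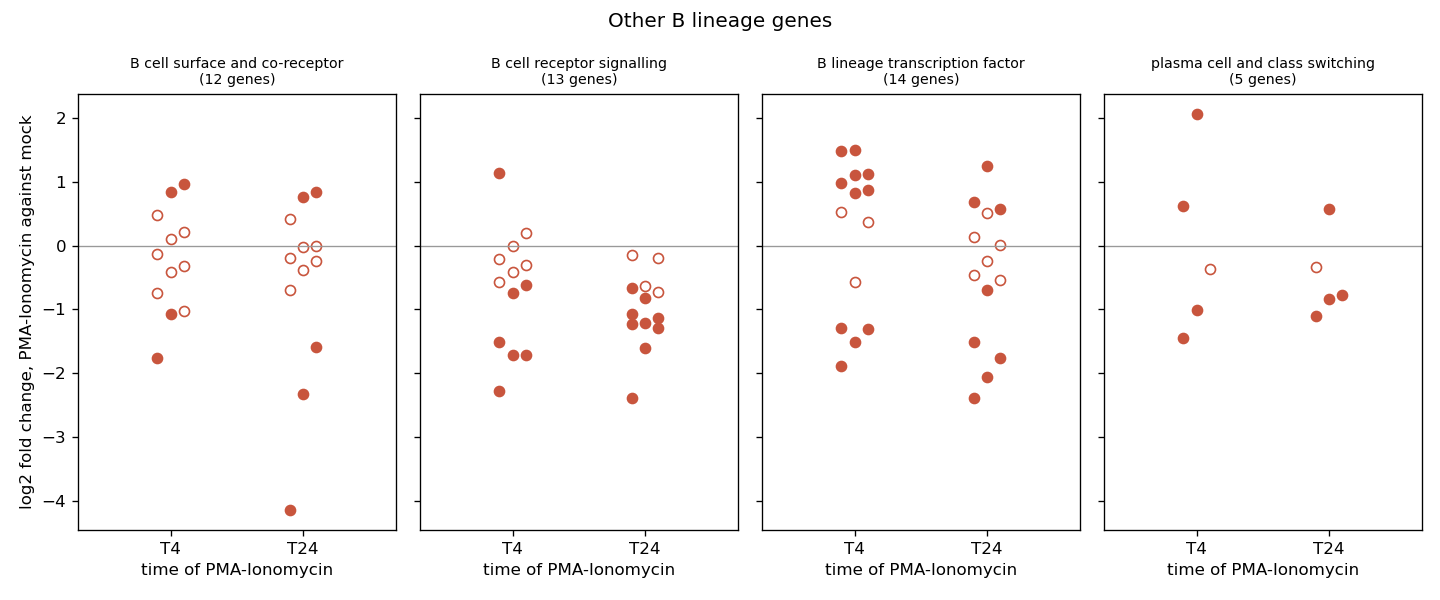
Log2 fold change (y axis) of the 44 measured genes of the other B lineage lists after PMA-Ionomycin against mock, at T4 and T24, with filled points for genes called DE and sideways spread only to part the points. Receptor signalling shifted below 0 at T24, with 9 of 13 genes called lower, and the transcription factors lay on both sides at T4, with 4 called lower and 7 higher.

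After LPS, 1 of the 44 was called at T4 (SPI1, log2 fold change -1.13, adjusted p = 0.0252), beside 0.974% of all genes called lower. At T24 it was 1 again (SDC1, -0.84, adjusted p = 0.0223), beside 0.582%. Without rabbit 2, 4 or 5 SPI1 was not called, and without rabbit 1 or 4 SDC1 was not.

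Immunoglobulin transcripts were found by the description of their probes, after the annotation had been seen. One is described as the secreted form of the mu heavy chain, and whether its signal is particular to that form was not tested. This mu transcript stood at 6.66, 6.90, 7.20 and 8.10 in mock-stimulated cells at T4 and at 4.67, 3.51, 5.67 and 5.37 after PMA-Ionomycin. It fell 5.32-fold (log2 fold change -2.41 ± 0.53 SE, adjusted p = 0.0013) and at T24 was at -0.81 (adjusted p = 0.299). The gamma heavy chain had the opposite timing: 0.033 at T4 (adjusted p = 0.987), and at T24 7.36, 5.93, 7.26 and 8.02 in mock-stimulated cells against 5.14, 3.35, 4.40 and 5.01, a 6.36-fold decrease (adjusted p = 0.000552). Its interaction with time was -2.70 (adjusted p = 0.0154), and that of mu was 1.61 (adjusted p = 0.145, and 0.0249 with the rabbit as a block). None of 3 kappa transcripts was called in the fit without a block. The brightest pair stood at -0.89 and -0.94 after PMA-Ionomycin at T24 (adjusted p = 0.166 and 0.131, and 0.0111 and 0.00623 with the rabbit as a block). With time in mock-stimulated cells the pair stood at -0.90 and -0.84, lower in 4 of 4 rabbits (adjusted p = 0.267 and 0.303, and 0.0236 and 0.0319 with the rabbit as a block).

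Markers of other blood cells were counted against the same shares of all genes, 9.34% lower and 13.4% higher at T4 and 11.5% lower and 22.1% higher at T24. Of 10 monocyte genes, 5 were lower with PMA-Ionomycin at T4 and 8 at T24, with none higher, and their summed level fell from between 7.85 and 8.84 to between 6.47 and 7.27 at T4, and from between 9.18 and 10.3 to between 6.77 and 7.43 at T24. CD14 had log2 fold changes of -3.01 at T4 and of -3.27 at T24 (adjusted p = 3.3e-07 and 3.18e-08). In mock-stimulated cells 8 of the 10 were higher at T24 than at T4, beside 7.4% of all genes. After LPS 3 were lower at T4, beside 0.974%, and 1 at T24, beside 0.582%.
Of 11 T cell genes, 1 was lower and 1 higher at T4 and 3 lower at T24, with a summed level of 4.16 to 4.59 in mock-stimulated and 4.02 to 4.52 in PMA-Ionomycin cultures at T4, and 4.14 to 4.58 and 4.09 to 4.22 at T24. At T4 the T cell counts, 1 of 11 each way, were near those shares. Of the 3 called at T24 (CD247, CD4 and LAT), CD4 was well above background on no array. Of these 11, 2 were well above background on no array of either mock group. CD3D, CD3E and CD3G were not among those found, while CD247, the CD3 zeta chain, was. Of 4 platelet genes 3 were lower at T4 and 1 was higher at T24, of 4 neutrophil genes 1 was lower at T4 and 3 at T24, of 3 erythrocyte genes 1 was lower at T24, and of 2 plasmacytoid dendritic cell genes 1 was lower at T24. A single call in a list this short is not read as a result beside those shares. With time in mock-stimulated cells 3 of 4 platelet genes were lower, beside 5.13% of all genes, and 3 of 4 neutrophil genes were higher, beside 7.4%. After LPS at T24, 2 of 4 neutrophil genes were lower, beside 0.582%. Natural killer cell genes were not analysed here. The part that these cells had in the values of the B lineage genes was not tested.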

How the data were processed

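The 24 one-colour arrays were deposited by the authors as scanner output of Agilent Feature Extraction 10.7.3.1, in which each spot has a median signal intensity without correction or scaling. The deposited table of log2 values holds these signals in log2, each array centred on the mean of its spots. Per the file headers the extraction protocol was the one-colour one.

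Levels were computed as described beside them, without spots marked as outliers, over 61657 non-control spots an array. Spots were averaged by probe and probes by gene, named through the RefSeq gene table (mOryCun1.1, no positions used). limma 3.58.1 in R 4.3.3 fitted a mean for each group, following the Statistical analysis of the study, and tested 7 contrasts, each with its own Benjamini-Hochberg adjustment over 28857 genes. Figures used matplotlib in Python. The limma step was tested on simulated data.

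The rabbits were the same animals in all groups, so samples are paired: deviations from group means had a median correlation of 0.228 over 60 same-rabbit pairs and -0.0738 over 180 others. The study's fit has no block, and alternatives were a rabbit or slide block, quantile normalization, the processed signal at its 75th percentile, normexp (offset 50) with quantile normalization, the deposited table, dim probes left out, outlier spots kept, fits of single comparisons and leaving out each rabbit. Members and lists were chosen with earlier results of these data known. All members with a probe are named; of each other B lineage list at most 4 genes are named, those with the smallest adjusted p after PMA-Ionomycin among called genes, with those called after LPS, and 8 genes by likeness. LCK, LYN, CD14 and CD4 were added with their values known. Some list genes are counted but not reported here by name. The number of arrays limits the precision.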

Additional observations from a re-analysis of the deposited data

Results flagged for a closer look

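Of 36 combinations of a member and a group of 4 cultures, 2 held a culture whose gap to its nearest neighbour was wide against the range of the group, where chance gives about 1 in 20. CD79B stood at 8.98 in the mock-stimulated cells of rabbit 5 at T4, with the other 3 rabbits between 7.60 and 7.81. CD22 stood at 0.20 in the LPS-stimulated cells of rabbit 2 at T4, with the others between -0.28 and -0.20. For 2 genes the response to PMA-Ionomycin differed between T4 and T24 by the test of the interaction: MS4A1 by -0.93 and CD79B by 3.64 on the log2 scale.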

How the results depend on the processing

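The 42 log2 fold changes of the members were recomputed under 13 alternatives. Of the 11 called, 8 kept their direction and their call under all 13, 3 lost the call under at least 1, and none changed sign. Of 31 not called, 2 gained a call under at least 1 (CD22 after PMA-Ionomycin at T4 and BLK with time in mock-stimulated cells, the latter without rabbit 5), and 12 changed sign under at least 1, always without a call. The processed signal at its 75th percentile, which changes both the signal and the scaling, put the median of all genes at -0.26 after PMA-Ionomycin at T24 and at 0.22 after LPS at T4, in place of 0.031 and 0.058, and members are to be read relative to it.

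Signs changed as follows. For MS4A1 after LPS at T4 quantile normalization gave 0.16, the processed signal 0.23 and normexp 0.17, and leaving out 1 rabbit -0.11 to 0.062. CD22 there gave 0.19 (processed signal), 0.054 (normexp), 0.023 (slide as a block) and -0.15 to 0.072 without 1 rabbit. After LPS at T24 CD79B gave -0.30 to 0.025 without 1 rabbit, and CD72 gave 0.011 with the slide as a block and -0.24 to 0.081 without 1 rabbit. After PMA-Ionomycin at T24 CD79B gave -0.68 to 0.13 without 1 rabbit, and CD72 gave -0.054 (quantile), -0.071 (normexp) and -0.083 to 0.64 without 1 rabbit. With time in mock-stimulated cells MS4A1 gave -0.037 (quantile), -0.051 (processed signal), -0.015 (normexp) and -0.21 to 0.39 without 1 rabbit, and BLNK gave -0.028 (processed signal) and -0.081 to 0.45 without 1 rabbit. For the interactions, CD22 gave -0.29 to 0.041 for LPS without 1 rabbit, and for PMA-Ionomycin 0.10 (processed signal), 0.027 (slide as a block) and -0.37 to 0.15 without 1 rabbit. BLNK gave -0.10 to 0.80 without 1 rabbit, and BLK gave -0.15 (quantile), -0.030 (processed signal), -0.19 (normexp) and -0.13 to 0.53 without 1 rabbit.

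The 4 members called after PMA-Ionomycin at T4 became 5 under 7 of 13 alternatives, with CD22 as the fifth, and the 4 at T24 became 3 under 3 of 13, without CD22. Counts moved by over 1.5 times in 2 comparisons. With time in mock-stimulated cells 1 became 0 in a fit of those arrays alone and 0 to 2 without 1 rabbit. For the interaction of PMA-Ionomycin and time 2 became 1 with normexp, 1 with the slide as a block and 1 to 2 without 1 rabbit. Of the 44 other B lineage genes, 1 called after LPS at T4 became 0 with the processed signal, normexp or only those arrays, 3 with the rabbit as a replicate block and 0 to 1 without 1 rabbit. The 1 at T24 became 0 with the processed signal, normexp, the deposited table, outlier spots kept or only those arrays, and 0 to 1 without 1 rabbit. The 9 with time in mock-stimulated cells (beside 5.13% of all genes lower and 7.4% higher) became 5 with only those arrays and 4 to 8 without 1 rabbit. The 1 for the interaction of LPS and time became 0 with the processed signal or only those arrays, 6 with the rabbit as a block and 0 to 1 without 1 rabbit, and the 15 for that of PMA-Ionomycin (beside 8.14% lower and 14.4% higher) 9 to 17 without 1 rabbit. Among the members the rabbit block changed only the call of CD22 after PMA-Ionomycin at T4 (-0.49, adjusted p = 0.0437). Over all genes the rabbit block took the calls after LPS at T4 from 281 lower and 16 higher to 1143 and 86, and those of the interaction of LPS and time from 69 and 491 to 188 and 1469. Other alternatives lowered them. The LPS calls at T4 became 7 and 1 with the processed signal, and 0 and 0 without rabbit 2, without rabbit 4 or with only those arrays. Those of the interaction became 5 and 2 without rabbit 2 and 8 and 23 without rabbit 4. The cause of these changes was not tested.

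Signal over background limits CD22, which lay near the array median in all groups, and the number of probes limits CD79B, CD22, BLK and CD72, each read at 1 site.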
